A study of Mus musculus with 242 samples.

Results

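Livers of mice that had breathed naphthalene at 20 or 30 ppm were profiled on 8 arrays, 4 for each concentration, out of 242 arrays in the series. The arrays were chosen by the compound and concentration in their titles and by the run code in the labels. This rule used no measured value, but earlier results of these data were known when the choice was made. Together with the 5 air controls of set ACO5 they make 13 arrays, and with the 5 arrays each of air sets ACO3 and ACO4 from the same run they make 23. All 23 mice were B6C3F1 females without a transgene or deletion in the labels, 18 weeks old when the livers were taken, and had been in the inhalation arm for 13 weeks, 6 hours a day on 5 days a week. Mice of the 3 air sets received air without naphthalene, and mice at 0.5, 3 and 10 ppm, 4 arrays each, served as lower concentrations. Each array held RNA from 1 mouse, taken from the right, caudate and median lobes together. The series asked which liver transcripts after 13 weeks could mark compounds that cause liver tumours in female mice. The labels do not state which air set was run beside naphthalene. The animal numbers of ACO4 end just before those of the 0.5 ppm mice and the numbers of ACO5 start just after those of the 30 ppm mice, so results are given against each set. ACO3 has animal numbers far from those of the naphthalene mice, and 4 of its 5 labels give the dose of 0 in mg per cubic metre, a unit that no naphthalene label uses. The comparison with all 3 air sets includes it.

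Naphthalene is a small aromatic hydrocarbon that harms tissue mainly after it has been oxidised. Cytochrome P450 enzymes, of which Cyp2f2 is the best known in mouse airway club cells and is also made in mouse liver, turn it into a reactive epoxide. The epoxide is removed by glutathione transferases, which start the route to mercapturic acids, or is opened by epoxide hydrolase to a dihydrodiol, which aldo-keto reductases can carry on towards quinones. The epoxide can also rearrange to naphthol, which is conjugated to glucuronic acid or sulfate. Quinones are reduced by Nqo1 and carbonyl reductases, and the transcription factor NRF2 induces many of these enzymes.

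Signals are log2 values of the linear signal plus a small constant, as explained in the processing notes, and changes are differences of such values between group means, with the standard error of the limma fit after the ± sign. A gene is said to have risen, fallen or changed where its limma p, adjusted by the Benjamini-Hochberg method over all 18193 genes of a comparison, was under 0.05 and the fold was at least 1.5. The tissue matched its label: albumin (Alb) was at 15.63 to 16.28 in the 8 high-dose arrays. The summed signal of 12 measured hepatocyte markers was 732817 to 794272 at 20 ppm, 568739 to 680227 at 30 ppm, 527228 to 651385 in ACO5 and 590700 to 860944 in ACO4. The 20 ppm arrays were thus all above the ACO5 arrays in this sum, while the 30 ppm arrays overlapped them. RNA integrity numbers, a score of RNA intactness, were 8.4 to 8.7 at 20 ppm, 8.5 to 8.6 at 30 ppm and 8.5 to 8.9 in ACO5. They did not differ by the exact permutation test, two-sided (p = 0.317 for 20 ppm and 0.349 for 30 ppm against ACO5). RNA integrity was 8.7 to 8.8 in ACO3 and 8.9 to 9.1 in the 3 ACO4 arrays that have one. The high-dose arrays were thus at or below those of ACO3 and ACO4. The part of RNA integrity in results that use these sets was not tested. Markers of lung epithelium, 7 genes, were high in a few control arrays only. Their summed signal reached 34069 in ACO4 (replicate 4), 10754 in ACO3 and 6495 in ACO5, and lay between 481 and 712 in the 8 high-dose arrays. Scgb1a1, the secretoglobin of club cells, was at 14.29 in replicate 4 of ACO4 and at 5.91 to 7.56 in the high-dose arrays. The number of genes called against the 3 air sets, and the calls of genes named there, are therefore also given without that array. List counts and medians, and the comparisons of 20 and 30 ppm with ACO4 alone, include it.

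The high concentrations were first set against the mean of all 3 air sets, which asks what 20 and 30 ppm share against 15 control mice. Glutathione transferase transcripts were higher. Transcripts of serum amyloid A, of some genes with male-biased expression in liver, and of interferon-induced and resident macrophage genes were lower. In all, 6 genes rose and 16 fell (22 of 18193, or 0.121%). These genes were named after their values were seen. Besides those described with their groups, the risen genes were Mfsd2a (0.88 ± 0.22), a transporter of lysophospholipids, Tpm2 (0.64 ± 0.16), a tropomyosin, and Slc35e4 (1.27 ± 0.32). The other falls included Sqle (-0.90 ± 0.22), the squalene epoxidase of cholesterol synthesis, Dio1 (-0.60 ± 0.13), the deiodinase that activates thyroid hormone, and Mup10 (-0.78 ± 0.17), a major urinary protein. The air sets differed in level: ACO4 against ACO5 was at 0.52 ± 0.19 for Dio1, 0.86 ± 0.24 for Mup10 and -0.08 ± 0.31 for Sqle. None of these differences passed. Without replicate 3 of ACO3, Dio1 (-0.57) and Sqle (-0.82) were no longer called. With only the compared groups in the fit 10 genes were called. Without replicate 4 of ACO4, 3 genes rose and 11 fell, and without replicate 4 of the 30 ppm arrays the count was also 14. In the former case Mfsd2a, Tpm2 and Slc35e4 were no longer called.

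Conjugating enzymes were the risen genes with a direct place in naphthalene metabolism. Gstm3, a mu class glutathione transferase, was at 13.56, 13.73, 13.69 and 14.17 in the 20 ppm arrays and at 13.49, 13.25, 13.36 and 13.98 in the 30 ppm arrays. In ACO5 it was at 12.21, 12.65, 12.05, 12.36 and 12.77, in ACO4 at 13.17, 12.80, 12.62, 11.88 and 12.63, and in ACO3 at 12.31, 12.21, 12.28, 12.42 and 12.04. All 8 high-dose arrays lay above all 15 control arrays. Means were 13.79 ± 0.27 (SD, n = 4) at 20 ppm, 13.52 ± 0.32 (SD, n = 4) at 30 ppm and 12.41 ± 0.30 (SD, n = 5) in ACO5. The change against the 3 sets was 1.23 ± 0.18, or 2.34-fold, with a limma adjusted p of 5.44e-06. Another probe set for Gstm3 moved the same way, by 1.21 at 20 ppm against ACO5.

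Gstm2, of the same class, showed the same separation. It was at 12.55, 12.33, 12.43 and 12.72 at 20 ppm and at 12.68, 12.53, 12.12 and 12.58 at 30 ppm, against 11.25 to 12.07 over the 15 control arrays (median 11.84). The change was 0.72 ± 0.14, or 1.65-fold (limma adjusted p = 0.00274). Gstm3 and Gstm2 were the only genes of 18193 (0.011%) with every high-dose array above every control array. Gsta2, an alpha class transferase, was at 13.07, 13.58, 13.83 and 14.04 at 20 ppm and at 13.67, 13.67, 13.06 and 13.89 at 30 ppm. Its 15 control values ran from 11.24 to 13.23, and the controls at the top of that range overlapped the lowest treated arrays. Gsta2 rose by 1.24 ± 0.24, or 2.36-fold (limma adjusted p = 0.00197). Probe sets for near-identical members of the mu and alpha classes can share signal, so the 3 genes may not be measured apart.

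**Figure D1:**
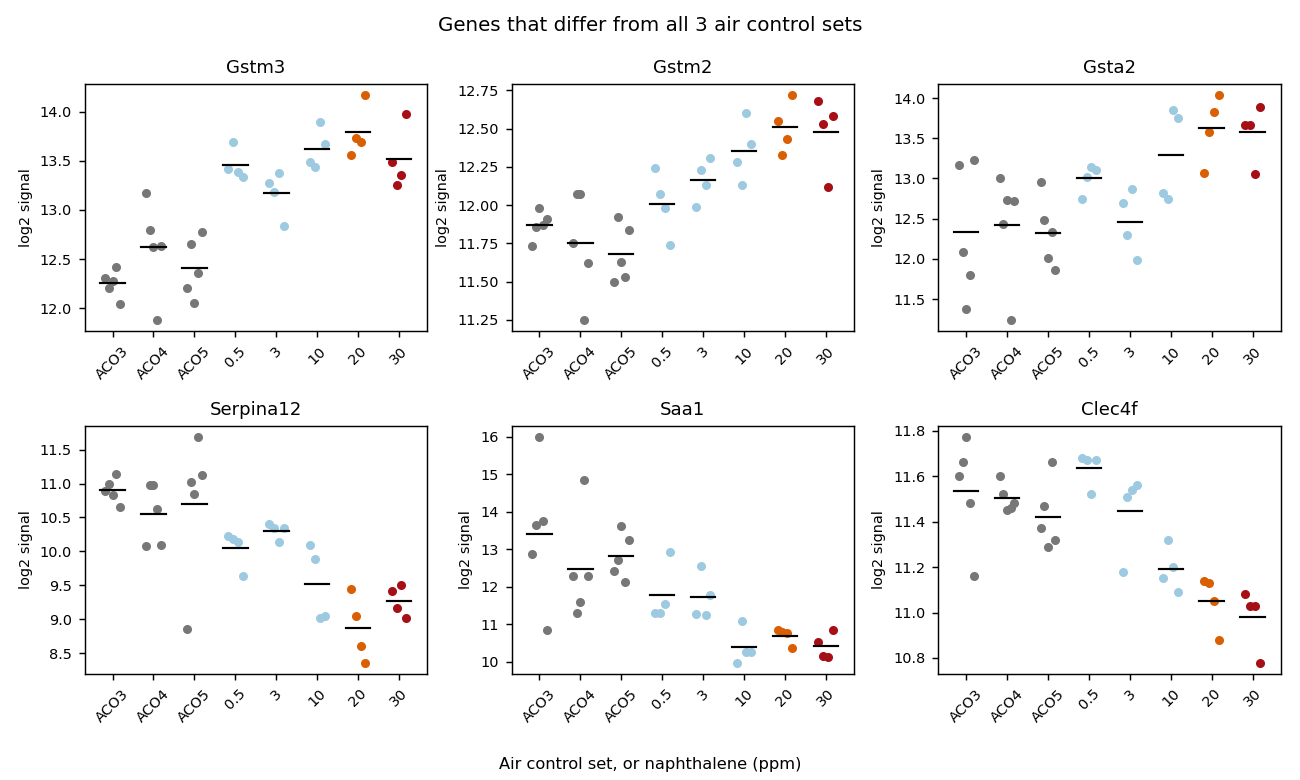
Log2 signal of 6 genes (vertical axis) in each array of the 3 air control sets and of the naphthalene groups at 0.5 to 30 ppm (horizontal axis). Points are single arrays, 1 mouse each, and bars are group means. Gstm3 and Gstm2 at 20 and 30 ppm lie above all control arrays, and Clec4f lies below them. The title refers to the mean of the 3 air sets, and not every gene passed against each single set.

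Among epoxide hydrolases and glutathione transferases more members were higher than lower. Of the 22 measured members 3 rose and none fell, and 13 were higher and 0 lower at an unadjusted p under 0.05, where 3.58% of all genes were higher and 4.56% lower. The median change of the list was 0.27 against the 3 sets together, beside -0.01 for all genes. Against single control sets the medians were 0.20 (ACO5), 0.22 (ACO4) and 0.26 (ACO3). Hepatocyte markers had a median of 0.07 against the 3 sets together, with 0 of 12 higher at an unadjusted p under 0.05. At 20 ppm alone their median was 0.34 against ACO5, 0.02 against ACO4 and 0.29 against ACO3, where the transferase medians were 0.20, 0.20 and 0.27, and the part of hepatocyte RNA in the result was not tested. Ephx1, the microsomal epoxide hydrolase, was higher by 0.34 ± 0.09 with an adjusted p of 0.0437 in limma, below the fold of 1.5. Gstm1, another mu class member, was at 15.48 to 15.64 at 20 ppm and 15.24 to 15.54 at 30 ppm, and its change of 0.28 ± 0.09 did not pass (adjusted p = 0.19). The high doses did not stand above the low ones for this list: against 0.5, 3 and 10 ppm its median was -0.09 and none of its members changed. Group means of Gstm3 were 13.46, 13.17 and 13.62 at 0.5, 3 and 10 ppm, near those at 20 ppm (13.79) and 30 ppm (13.52).

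The other enzymes of the naphthalene route moved little. Cyp2f2 was at 15.39, 15.55, 15.46 and 15.47 at 20 ppm, at 15.07, 15.28, 15.15 and 15.33 at 30 ppm, and at 14.96, 15.32, 15.29, 15.24 and 15.41 in ACO5, so the groups overlapped (0.03 ± 0.08 against the 3 sets). None of the 11 measured P450s of the oxidation list changed, and their median was 0.03. The members with the lowest unadjusted p were Cyp2b10 (0.68 ± 0.22, adjusted p = 0.22), Cyp2c29 (0.30 ± 0.08, adjusted p = 0.12) and Cyp2c55 (0.61 ± 0.20, adjusted p = 0.24), all known as targets of the xenobiotic receptors CAR and PXR. Among 18 such targets 7 were higher and 1 lower at an unadjusted p under 0.05, beside 3.58% and 4.56% of all genes. Their median was 0.15, and the 1 that changed was Cyp3a44, which fell. Against ACO5, ACO4 and ACO3 singly 7, 1 and 8 targets were higher and 1, 1 and 2 lower. Of all 18193 genes 360, 612 and 858 were higher. At 20 ppm alone 8, 4 and 10 targets were higher in that order, and at 30 ppm alone 0, 0 and 3. Lower targets were 1, 1 and 1 at 20 ppm and 0, 2 and 1 at 30 ppm. Of all genes 675, 459 and 758 were higher at 20 ppm and 256, 880 and 925 at 30 ppm. Of 19 quinone and carbonyl reductases none changed (median 0.06), and the NAD(P)H quinone dehydrogenase Nqo1 was at 0.06 ± 0.11. None of 16 enzymes of naphthol conjugation (median 0.05), of 13 of the mercapturate route and export (0.09) or of 23 genes of NRF2 and glutathione supply (0.02) changed. In the last list Hmox1 (-0.51) and Osgin1 (-0.50) were lower and Tkt (0.41) higher at unadjusted p values of 0.0088, 0.0041 and 9.4e-04. In the RefSeq promoters (build GRCm38.p6, 250 bases before the start, both strands) the antioxidant response core TGACNNNGC was found in none of Gstm3, Gstm2 and Gsta2, in 4 of 21 members of the transferase list with a promoter (19.0%), and in 11.5% of all 27025 genes.

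Some genes with male-biased expression in mouse liver were lower. Of 14 measured male-biased genes 4 fell, with a median of -0.26, where 0.121% of all genes changed in either direction. Of 16 female-biased genes 2 fell, both P450s of the 3a family, and the list median was -0.03, with 7 members higher and 9 lower whatever their p. At 20 ppm against ACO5 the female-biased median was 0.15. Serpina12, which encodes the protease inhibitor vaspin, was at 9.45, 9.05, 8.60 and 8.36 at 20 ppm and at 9.41, 9.16, 9.51 and 9.01 at 30 ppm. In ACO5 it was at 8.86, 11.02, 10.84, 11.68 and 11.12, and in the other 10 air arrays at 10.08 to 11.14. Only replicate 1 of ACO5 lay among the treated arrays. The fall was -1.65 ± 0.22, or 3.14-fold (limma adjusted p = 3.03e-07). Its group means were 10.04, 10.31 and 9.51 at 0.5, 3 and 10 ppm.

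Hsd3b5, a hydroxysteroid dehydrogenase of male liver, was at 9.28, 6.58, 7.83 and 5.30 at 20 ppm and at 9.44, 7.70, 10.05 and 8.51 at 30 ppm, against 8.79 to 11.33 in the 15 air arrays. The 20 ppm arrays spread widely and the 30 ppm arrays overlapped the controls; the fall was -2.13 ± 0.46 (limma adjusted p = 0.0074). Cyp7b1, an oxysterol hydroxylase of bile acid synthesis, was at 12.28, 11.99, 12.41 and 11.96 at 20 ppm and at 12.53, 12.41, 12.74 and 12.66 at 30 ppm, and at 12.61 to 13.83 in the air arrays. It fell by 0.89 ± 0.15 on the log2 scale (limma adjusted p = 2.62e-04). C6, a complement component, fell by 0.72 ± 0.17. On the female-biased side Cyp3a16 fell by 2.87 ± 0.52 and Cyp3a44 by 1.00 ± 0.23 on the log2 scale, near-identical P450 genes whose probe sets can share signal. Cyp3a16 was at 4.21 to 5.84 in the high-dose arrays, close to the constant added before the log, and at 5.65 to 10.26 in air, with the top value again in replicate 4 of ACO4. Without that array C6 and Cyp3a44 were no longer called.

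Acute phase transcripts were lower chiefly in the serum amyloid A genes, which liver secretes during inflammation. Saa1 was at 10.85, 10.79, 10.76 and 10.37 at 20 ppm and at 10.53, 10.15, 10.13 and 10.84 at 30 ppm. It was at 12.43, 12.72, 13.63, 12.12 and 13.25 in ACO5, at 12.29, 11.31, 11.58, 14.85 and 12.28 in ACO4, and at 12.86, 13.64, 15.98, 13.75 and 10.84 in ACO3. The 8 treated arrays were low and close together, and only replicate 5 of ACO3 came down to them. The fall of Saa1 was -2.35 ± 0.40, or 5.09-fold (limma adjusted p = 2.62e-04), and -1.94 without replicate 4 of ACO4 and replicate 3 of ACO3, the arrays with the highest levels. Saa2 fell by 2.05 ± 0.42 on the log2 scale, and was no longer called without those 2 arrays (-1.46). Apcs, serum amyloid P, was lower by -0.43 with an adjusted p of 0.034, under the fold limit. No other member of the 25 acute phase genes changed, and the list median was -0.15. The fibrinogen chains Fga, Fgb and Fgg were between -0.04 and 0.02, and the hepcidin gene Hamp was at 0.05. Group means of Saa1 were 11.77, 11.72 and 10.40 at 0.5, 3 and 10 ppm.

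Interferon-induced genes leaned lower. Interferons are cytokines of antiviral defence, and the promoters of many of their target genes carry a shared response element. Of 26 measured genes of this response 17 were lower and 0 higher at an unadjusted p under 0.05, with a list median of -0.38. Of all genes 4.56% were lower and 3.58% higher at that p. Only Ifi27l2a, an interferon-induced mitochondrial protein, fell by the full rule (-0.81 ± 0.18, limma adjusted p = 0.0111). It was at 8.61, 8.25, 8.25 and 7.91 at 20 ppm, at 8.57, 7.26, 8.15 and 7.39 at 30 ppm and at 8.39 to 9.65 in air. Stat2 itself was lower by -0.49 ± 0.10 (limma adjusted p = 0.00404), below the fold of 1.5. It was at 8.56, 8.27, 8.23 and 8.31 at 30 ppm, below all 15 air arrays (8.71 to 9.54), but at 8.89, 9.01, 8.82 and 9.09 at 20 ppm, within them. Usp18, the protease that removes ISG15, was lower by -0.57 ± 0.14 (limma adjusted p = 0.0454). The list medians were -0.33 against ACO5, -0.40 against ACO4 and -0.42 against ACO3. At 20 ppm alone 2, 9 and 4 members were lower at an unadjusted p under 0.05 against ACO5, ACO4 and ACO3. At 30 ppm 10, 14 and 13 were lower, and none was higher at either concentration. Of all 18193 genes 883, 597 and 672 were lower at 20 ppm and 569, 933 and 773 at 30 ppm. At 0.5, 3 and 10 ppm against ACO5 the list medians were -0.03, -0.04 and -0.35.

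The core of this response element, GAAA repeated with 2 bases of any kind between the copies, was searched on both strands of the 250 bases before the RefSeq start of each gene (build GRCm38.p6). It was present in 13 of 22 listed interferon genes with a promoter in the table (59.1%) and in 936 of 27025 genes (3.46%). The matches below, 1 for each gene, belong to the 7 measured members that hold a match and were lower at an unadjusted p under 0.05, and are shown as examples of the element. Lower levels were not limited to genes with a match. Of 11 measured members with a match 7 were lower at that p (median -0.32), and of 8 measured members with a promoter and no match 7 were (median -0.42). Each window runs 5′ to 3′ on the strand of the gene, with the matched letters in capitals. A match is a description of the sequence, and binding was not measured.
Ifit1 (chr19:34640794-34640823, plus strand): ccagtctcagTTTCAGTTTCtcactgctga
Ifit3 (chr19:34583397-34583426, plus strand): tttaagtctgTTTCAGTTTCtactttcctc
Stat2 (chr10:128270266-128270295, plus strand): cgcaccctggTTTCAGTTTCctttccctag
Igtp (chr11:58199512-58199541, plus strand): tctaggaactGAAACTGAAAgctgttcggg
Irgm1 (chr11:48871425-48871454, minus strand): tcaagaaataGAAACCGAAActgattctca
Cxcl10 (chr5:92349083-92349112, minus strand): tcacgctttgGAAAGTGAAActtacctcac
Bst2 (chr8:71537577-71537606, minus strand): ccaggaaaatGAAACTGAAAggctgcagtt
The matches lay 24 to 222 bases before the start. The changes of the same genes were -0.47 (Ifit1), -0.52 (Ifit3), -0.49 (Stat2), -0.33 (Igtp), -0.32 (Irgm1), -0.55 (Cxcl10) and -0.19 (Bst2), of which that of Stat2 alone passed the adjusted threshold.

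Markers of Kupffer cells, the resident macrophages of the liver, were lower as well. In bulk liver, fewer cells of a type and less RNA per cell cannot be told apart. Clec4f, a lectin restricted to Kupffer cells, was at 11.14, 11.13, 11.05 and 10.88 at 20 ppm and at 11.08, 11.03, 11.03 and 10.78 at 30 ppm. The air arrays ran from 11.16 to 11.77, so all 8 treated arrays lay below all controls. The change was small but tight (-0.47 ± 0.08, 1.39-fold, limma adjusted p = 1.71e-04), so Clec4f passed the test of significance and not the fold. Lyz2, the lysozyme of myeloid cells, also separated completely (9.66 to 10.26 against 10.33 to 11.73) and fell by 0.73 ± 0.17 on the log2 scale. These were the only 2 genes (0.011%) with every high-dose array below every control array. Without replicate 4 of ACO4, where Lyz2 was highest, its change of -0.64 was no longer called. Of the 14 macrophage markers 11 were lower and 0 higher at an unadjusted p under 0.05, with a median of -0.35. Of all genes 4.56% were lower and 3.58% higher at that p. The lower markers included the complement genes C1qa, C1qb and C1qc (-0.37, -0.40 and -0.34) and Vsig4 (-0.52). The summed signal of the 14 markers was 16781 to 21558 at 20 ppm, 18384 to 21174 at 30 ppm and 20824 to 30949 over the air arrays. Against single sets the medians were -0.36 (ACO5), -0.25 (ACO4) and -0.45 (ACO3). At an unadjusted p under 0.05, 8 markers were lower against ACO5, 2 against ACO4 and 12 against ACO3, and 0 higher. Of all 18193 genes 632, 748 and 685 were lower in the same order. Group means of Clec4f were 11.64, 11.45 and 11.19 at 0.5, 3 and 10 ppm. Of 11 endothelial markers none changed (median -0.15). At an unadjusted p under 0.05, 4 were lower against ACO5, 2 against ACO4 and 4 against ACO3, and 0 higher. Their mean summed signal was 13508 in the high-dose arrays and 15129 in air (exact permutation test, two-sided, p = 0.00541, adjusted p = 0.141). Markers of neutrophils (median 0.06), lymphocytes (-0.11) and bile ducts (0.05) had no changed member. Lymphocyte sums were 919 and 1081 (exact permutation test, p = 0.0244, adjusted p = 0.141).

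**Figure D2:**
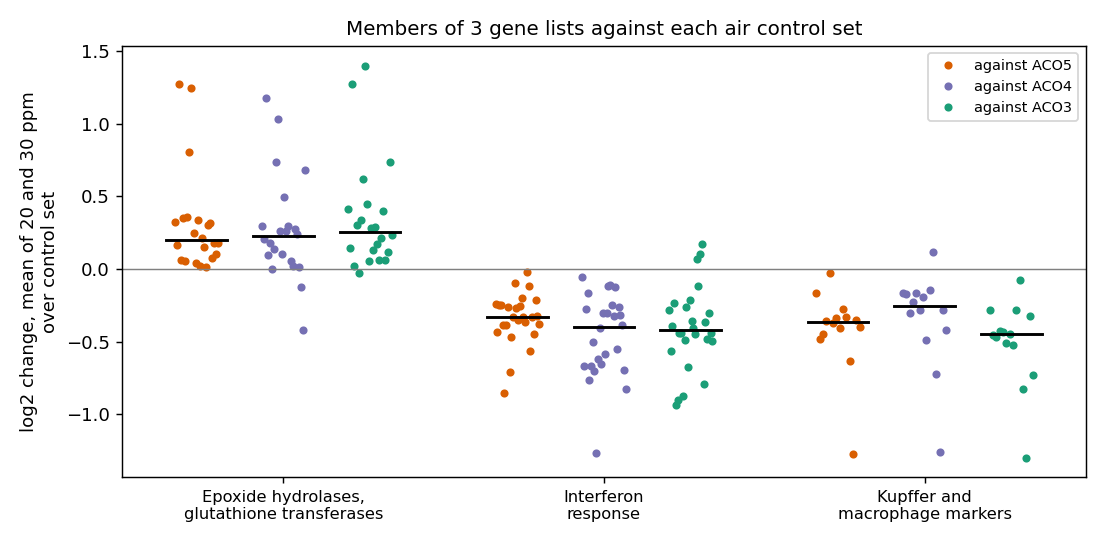
Log2 change of the mean of 20 and 30 ppm over each air control set (vertical axis) for every measured member of 3 gene lists (horizontal axis). Points are genes and bars are list medians; the transferase medians lie at 0.20 to 0.26 and the interferon and macrophage medians at -0.25 to -0.45 with each control set.

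Against ACO5 alone, 17 genes were higher and 7 lower at 20 ppm (24 of 18193, or 0.132%). The higher genes included Gstm3 (1.38 ± 0.28) and the steroid hydroxylase Cyp17a1 (0.92 ± 0.21). The largest rises, all with limma adjusted p values under the threshold, were in Sh3rf1 (1.95 ± 0.31), a scaffold of stress kinases, Baz1a (1.81 ± 0.32), a chromatin remodeller subunit, and Ccar1 (1.54 ± 0.36), a transcriptional coactivator. They were followed by the kinase gene Gsk3b (1.39 ± 0.27), the RNA-binding Hnrnpab (1.32 ± 0.24), the endothelin-converting enzyme Ece1 (1.23 ± 0.24), the splicing factor Srrm2 (1.19 ± 0.17), Sbno1 (1.16 ± 0.24) and the histone chaperone gene Ubn1 (1.13 ± 0.18). The falls were Hsd3b5 (-3.04 ± 0.70), Serpina12 (-1.84 ± 0.34), C2cd4c (-1.12 ± 0.27), Id4 (-1.02 ± 0.21), an inhibitor of DNA binding, Ncf1 (-0.81 ± 0.17), a subunit of the phagocyte oxidase, Zbtb4 (-0.72 ± 0.17) and the kinase gene Mapkapk5 (-0.61 ± 0.13). Insyn2a, Opalin and Sh3bp1, next by unadjusted p, did not pass (adjusted p = 0.0639, 0.0698 and 0.0698). Other enzymes of the naphthalene route were not called at 20 ppm. Their lowest p values belonged to Cyp2c29 (0.49 ± 0.13, limma adjusted p = 0.102) among the P450s, the carbonyl reductase gene Cbr4 (0.48 ± 0.18, adjusted p = 0.348) among the reductases and the glucuronosyltransferase gene Ugt2b36 (0.41 ± 0.13, adjusted p = 0.244) among the conjugating enzymes. Dhdh, the dihydrodiol dehydrogenase, was at 0.77 ± 0.31 and the estrogen sulfotransferase gene Sult1e1 at 1.18 ± 0.48. With only the 20 ppm and ACO5 arrays in the fit, limma called 0 genes. The count was 43 without replicate 1 of ACO5 and 15 without replicate 5.

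For Srrm2 and Baz1a, most ACO5 arrays lay below the other air sets. Srrm2 was at 11.75, 11.81, 11.62 and 11.69 at 20 ppm and at 11.16, 10.04, 10.33, 10.82 and 10.29 in ACO5. It was at 11.46, 11.45, 11.44, 11.61 and 11.56 in ACO4 and at 11.16, 11.52, 11.54, 11.56 and 10.80 in ACO3. The 20 ppm arrays were thus close to the other air sets, and ACO5 was the low group. Among the 32 groups of the run, ACO5 had the second lowest and 30 ppm the lowest mean for Srrm2. Baz1a was at 8.12, 7.96, 8.70 and 8.35 at 20 ppm, 8.05 to 8.85 in ACO4 and 8.16 to 8.71 in ACO3, but at 8.71, 7.47, 6.06, 5.15 and 4.94 in ACO5. Replicate 1 of ACO5 was level with the other sets for Baz1a and was the highest of its set for Sh3rf1 and Gsk3b too.

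The median change of the 17 genes at 20 ppm was 1.19 against ACO5, by which they were chosen, 0.11 against ACO4 and 0.18 against ACO3. None of the 17 passed against ACO4, Gstm3 alone passed against ACO3, and Gstm3 and Srrm2 passed against the 3 sets pooled. Of the 7 lower genes, Ncf1 and Serpina12 passed against ACO4, Serpina12 against ACO3, and Hsd3b5, Ncf1 and Serpina12 against the pooled sets. ACO4 and ACO3 were themselves set against ACO5, comparisons that share the ACO5 arrays with the one above. There 20 genes were higher and 3 lower in ACO4 (0.126%), and 16 were higher and 0 lower in ACO3 (0.0879%), with 29 and 16 genes at an adjusted p under the threshold. The median change of the 17 genes was 1.12 for ACO4 over ACO5 and 1.11 for ACO3 over ACO5. Other probe sets of the same genes mostly did not move. Of the 15 genes with more than 1 probe set, the brightest other probe set passed 1.5-fold in the same direction at 20 ppm against ACO5 in 3, with a median of 0.06. For Hnrnpab that probe set differed by -0.08, and for Srrm2 the next one by -0.07. The cause of the difference between probe sets was not tested.

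**Figure D3:**
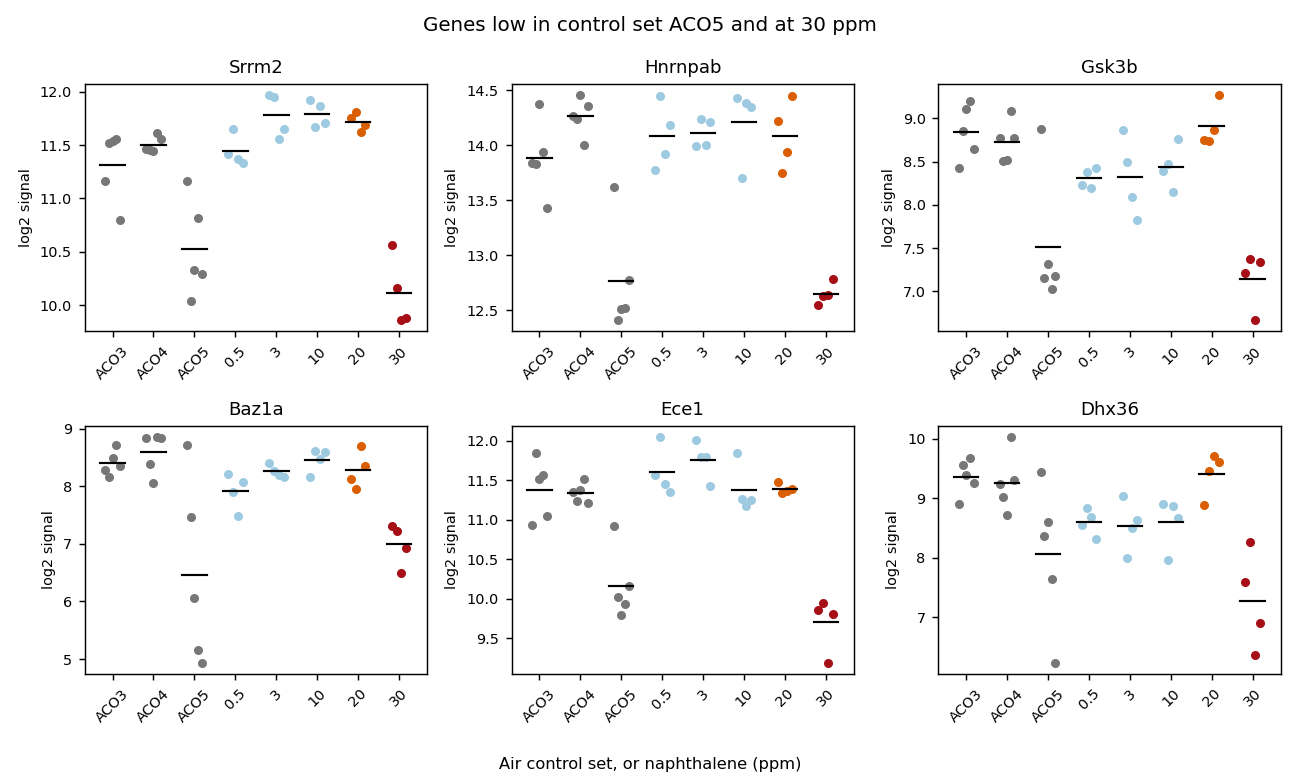
Log2 signal of 6 genes (vertical axis) by array, laid out as in the plot of genes that differ from all air sets. Points are single arrays and bars are group means; ACO5 and 30 ppm are the low groups, with Srrm2 means of 10.53 and 10.11, while ACO3, ACO4 and 20 ppm lie together.

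At 30 ppm, limma called 0 genes higher and 0 lower against ACO5 (0%), with 825 genes at an unadjusted p under 0.05 and a lowest adjusted p of 0.32. Among the 20 genes named by rule, ordered by unadjusted p in each direction, were several that differed from the 3 air sets together: Gstm3 (1.11 ± 0.28), Gstm2 (0.79 ± 0.22), Gsta2 (1.25 ± 0.37), Mfsd2a (1.16 ± 0.34) and Tpm2 (0.71 ± 0.24) on the higher side, none of which passed. Serpina12 (-1.43 ± 0.34), Saa1 (-2.42 ± 0.62) and Ifi27l2a (-1.06 ± 0.27) were on the lower side, as were Stat2 (-0.63 ± 0.15) and the receptor tyrosine kinase gene Axl (-0.67 ± 0.18). Mdm2, the ubiquitin ligase of p53, was at -1.14 ± 0.28 and Entpd1, the ectonucleotidase CD39, at -0.79 ± 0.21. Some of the others rested on low signals or single arrays. Cdh19 (1.17 ± 0.31) was at 5.94, 5.30, 6.42 and 4.53 at 30 ppm and at 4.32 to 4.52 in ACO5, near the constant added before the log. Fign (-1.18 ± 0.28) was at 6.73, 6.69 and 6.51 in 3 arrays and at 4.46 in the other, and its change was -0.63 without that array. Kcnk4 (1.62 ± 0.44), Hormad2 (1.54 ± 0.43), BC031361 (1.14 ± 0.37), Henmt1 (1.27 ± 0.42), Kif21b (-0.82 ± 0.20) and Gpc6 (-1.40 ± 0.35) complete the set named by rule.

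With the other air sets as controls the counts at 30 ppm were larger. They were 19 higher and 62 lower against ACO4 (0.445%), 11 and 49 against ACO3 (0.33%), and 10 and 39 against the 3 sets pooled (0.269%). At 20 ppm they were 0 higher and 10 lower against ACO4 (0.055%), 2 and 3 against ACO3 (0.0275%), and 6 and 11 pooled (0.0934%). The 17 genes higher at 20 ppm against ACO5 had a median at 30 ppm of -0.07 against ACO5, -1.22 against ACO4 and -1.20 against ACO3. Gstm3, by contrast, had a positive change with each set. It was 1.38, 1.17 and 1.53 at 20 ppm and 1.11, 0.90 and 1.27 at 30 ppm against ACO5, ACO4 and ACO3. Not all of these passed: 20 ppm against ACO4 did not (limma adjusted p = 0.0669). Nor did 30 ppm against ACO5 (limma adjusted p = 0.32) or against ACO4. The changes of Serpina12 were -1.84, -1.69 and -2.04 at 20 ppm and -1.43, -1.28 and -1.63 at 30 ppm in the same order. That at 30 ppm against ACO5 did not pass (limma adjusted p = 0.32).

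**Figure D4:**
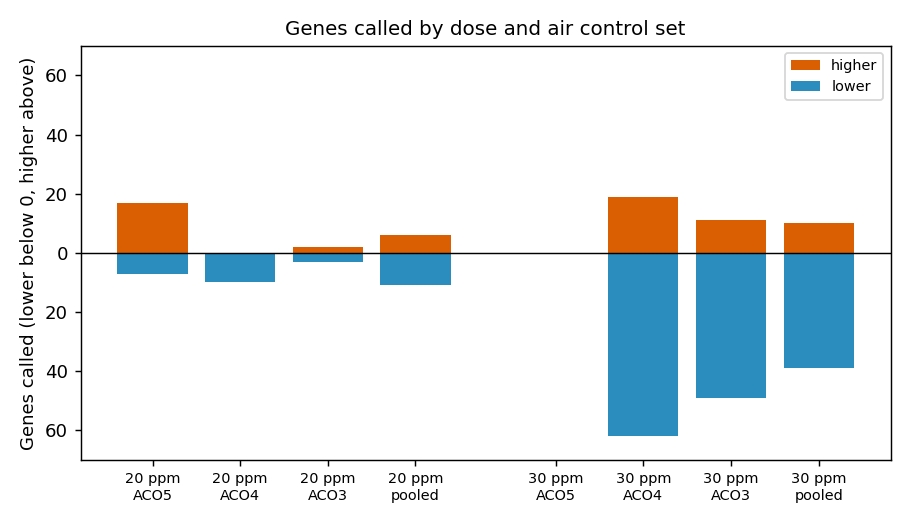
Number of genes called higher (bars above 0) and lower (bars below 0) for 20 and 30 ppm (horizontal axis) with each air control set and with the 3 sets pooled. The counts run from 0 for 30 ppm against ACO5 to 62 lower for 30 ppm against ACO4.

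Taking the 8 high-dose arrays together against ACO5 left 1 gene risen and 1 fallen (0.011%), Gstm3 (1.24 ± 0.23, limma adjusted p = 0.0056) and Serpina12 (-1.64 ± 0.28, limma adjusted p = 0.0017). Gstm2 (0.81 ± 0.19, limma adjusted p = 0.112), Saa1 (-2.28 ± 0.52, adjusted p = 0.112) and Gsta2 (1.28 ± 0.32, adjusted p = 0.186) did not pass. Axl (-0.64 ± 0.15), Id4 (-0.75 ± 0.18), Ncf1 (-0.59 ± 0.14), Ifi27l2a (-0.85 ± 0.23), the collagen gene Col5a2 (-0.87 ± 0.24), the class II antigen gene H2-Eb1 (-0.78 ± 0.22) and Vit (-1.05 ± 0.30) were further genes on the lower side that did not pass. Without replicate 4 of ACO5 no gene was called, and without replicate 3, 1 was; without replicate 1 the count was 6, and without replicate 2 it was 4. Serpina12 was at -1.39 without replicate 4 and at -2.10 without replicate 1 of ACO5.

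At 30 ppm compared directly with 20 ppm, 21 genes were higher and 34 lower (55 genes, 0.302%). The largest differences were in Dhx36 (-2.13 ± 0.41), a helicase that unwinds G-quadruplexes, Sh3rf1 (-1.98 ± 0.33), Ccar1 (-1.90 ± 0.38), Gsk3b (-1.76 ± 0.28) and Crim1 (-1.72 ± 0.38) on the lower side. On the higher side they were Ehd2 (1.63 ± 0.41), a caveolar ATPase, the lysosomal nuclease gene Dnase2a (1.56 ± 0.34), Arhgef25 (1.53 ± 0.38), Sh3bp1 (1.46 ± 0.31) and the kinase gene Map3k12 (1.45 ± 0.27). Other probe sets again mostly did not move. Of 32 lower genes with another probe set the brightest of them passed 1.5-fold the same way in 2 (median -0.10, beside -1.17 for those used), and of 17 higher genes in 0 (0.15 beside 0.93). None of the 22 epoxide hydrolases and transferases, 26 interferon genes or 14 macrophage markers was called between 20 and 30 ppm. At an unadjusted p under 0.05, 2 members of the transferase list and 2 interferon genes were lower, and none was higher. Of all 18193 genes 785 were lower at that p. The medians of the lists were -0.04, -0.15 and -0.03, where the median of all genes was -0.02. Hsd3b5 was higher at 30 than at 20 ppm by 1.68 ± 0.74, which did not pass (limma adjusted p = 0.47). Hepatocyte markers did not change but had a median of -0.29. With only those 8 arrays in the fit no gene was called, and with all arrays the count was 23 without replicate 3 of the 30 ppm arrays and 28 without replicate 3 of the 20 ppm arrays.

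The 2 high concentrations differed from 0.5, 3 and 10 ppm in 470 genes higher and 122 lower (592 genes, 3.25%). After quantile normalisation the split was 223 higher and 179 lower. RNA integrity moved with this contrast: it was 8.4 to 8.7 in the 8 high-dose arrays and 9.1 to 9.3 in the 11 low-dose arrays that have one (exact permutation test, two-sided, p = 2.65e-05). The median signal of an array was 83.5 to 98.3 at the high and 76.1 to 87.6 at the low concentrations. Concentration and RNA integrity cannot be told apart here. The largest rises were in Golga7b (1.62 ± 0.45), Asprv1 (1.54 ± 0.35), Zfp994 (1.51 ± 0.40), Rgs16 (1.51 ± 0.53), a regulator of G protein signalling, and Cdc45 (1.45 ± 0.30), a DNA replication factor. For Asprv1, Zfp994 and Cdc45 the mean signals at 20 and 30 ppm (6.68 and 6.86, 6.92 and 6.97, 7.87 and 7.87) were near those in ACO5 (6.57, 6.48 and 7.63), and the low-dose means were the ones apart. The largest falls were in Cyp3a16 (-1.67 ± 0.54), Hsd3b5 (-1.50 ± 0.47), the flap endonuclease gene Fen1 (-1.34 ± 0.45), Tepsin (-1.34 ± 0.36) and Gm13889 (-1.32 ± 0.34). In this comparison 3 interferon genes and 1 macrophage marker fell, and the medians of the 2 lists were -0.21 and -0.38 beside 0.04 for all genes. Serpina12 fell by 0.89 ± 0.23 and Clec4f was lower by -0.41 ± 0.08 with an adjusted p of 3.4e-04.

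A linear trend over ACO5 and the 5 concentrations, equally spaced by rank, called 5 genes rising and 12 falling (17 genes, 0.0934%), named after their values were seen. The count ranged from 4 to 32 as single arrays were left out, with 4 without replicate 4 of either high concentration. Rises over the whole range were in Kcnk4 (1.71 ± 0.38), a potassium channel gene, Mfsd2a (1.28 ± 0.29), Gstm3 (1.00 ± 0.24), Ttc3 (0.92) and Gstm2 (0.81 ± 0.19). ACO5 is the only control set here. Kcnk4 was above ACO5 in the other air sets too, by 0.96 ± 0.42 in ACO3 and 0.81 ± 0.42 in ACO4, though neither difference passed. For Mfsd2a, Gstm3 and Gstm2 these differences were between -0.16 and 0.21. Genes called against ACO5 numbered 453, 753, 125, 24 and 0 at 0.5, 3, 10, 20 and 30 ppm. Falls included Saa1 (-2.37 ± 0.53), Serpina12 (-1.64 ± 0.29), Sqle (-1.33 ± 0.28) and Clec4f (-0.61 ± 0.10). The others included Irf5 (-0.85), Xaf1 (-0.79), Ly6e (-0.78) and Irf9 (-0.71), which are on none of the lists described here. Of 26 interferon genes 2 fell, Ifi27l2a (-1.03) and Psmb9 (-0.78), and the list had a median trend of -0.50 and the macrophage list one of -0.51, beside -0.01 for all genes. Since the top of this trend is the contrast with the lower RNA integrity, the steps between 10 and 20 ppm carry that difference too. At its start, ACO5 had RNA integrity of 8.5 to 8.9 and the low concentrations 9.1 to 9.3. The step from control to the low concentrations thus carries a difference of the opposite sign.

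The remaining lists held few changes against the 3 air sets. No member changed among 8 AhR targets (median 0.00), 20 PPARalpha targets (0.02), 22 p53 targets (-0.05), 26 cell cycle genes (-0.05), 20 clock genes (0.14), 22 genes of fatty acid synthesis and storage (0.18), 17 of gluconeogenesis and fasting (0.19), 24 of amino acid and endoplasmic reticulum stress (-0.05), 16 heat shock genes (-0.10) or 10 metal response genes (0.02). Among 20 cholesterol synthesis genes Sqle alone fell (median 0.00), and among 20 bile acid genes Cyp7b1 alone fell (median -0.03). The classical AhR target Cyp1a1 was at -0.32 and the p53 target Mdm2 at -0.69 ± 0.18 (limma adjusted p = 0.074), and neither passed.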

How the data were processed

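Liver RNA was hybridised to 1-colour Affymetrix Mouse430_2 arrays, 1 mouse per array. The authors deposited linear signal intensity per probe set, made with GCOS 1.0 per the submitters' processing notes. The deposited intensity had a trimmed mean (2% off each end) of 500 in all but 2 of 242 arrays, and those were rescaled to it, 1 of them in the run used here. Values were log2(signal + 17.3), where the pseudocount is the 20th percentile of the signals. Each gene was represented by its probe set of highest mean, which gave 18193 genes from 34945 probe sets with 1 symbol; 10092 probe sets were unnamed. limma 3.58.1 in R 4.3.3 (lmFit and eBayes, two-sided) was fitted on the 134 arrays and 32 groups of the run, with 1 mean per group and Benjamini-Hochberg adjustment over all genes. Array-level tests used exact permutation in scipy 1.17.1.

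The text names, for each concentration and their mean against ACO5, the 10 largest rises and falls among changed genes, filled by lowest unadjusted p at a fold of at least 1.5. It also names the naphthalene metabolism members that changed or had the lowest p, up to 4 changed members of other lists, and the 5 largest rises and falls for dose against dose. The arrays, gene lists and comparisons were chosen with earlier results of these data known. On simulated 20 ppm and ACO5 arrays with 18193 genes, 183 of 200 genes changed 4-fold and 123 of 200 changed 2-fold were recovered, with 14 false calls. Alternatives varied normalisation, dim-gene filter, pseudocount, arrays in the fit, control set, probe sets, array weights, fold and single arrays. The number of arrays limits the precision. The limma p-values rest on the spread between mice within groups, pooled over the 32 groups of the run. The spread between air control sets does not enter them.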

Additional observations from a re-analysis of the deposited data

Results flagged for a closer look

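Single arrays that lay apart from the rest of their group were looked for in 95 genes over 285 groups by Dixon's test, which chance alone passes in about 1 group in 20, and 17 were found. All values are log2 signals. In ACO5, replicate 1 was high for Sh3rf1 (7.29, the others at 4.71 to 5.34) and Gsk3b (8.88, the others at 7.03 to 7.32). Replicate 4 of ACO5 was high for Henmt1 (5.99) and H2-Eb1 (10.98) and low for Asprv1 (4.49), and replicate 3 was high for Aldh3a1 (5.61). At 30 ppm, replicate 4 was low for Fign (4.46) and Clec4f (10.78). Replicate 3 of the 30 ppm arrays was low for Kif21b (6.5) and Ece1 (9.19) and high for H2-Eb1 (9.47). Replicate 1 of the 30 ppm arrays was high for Vit (6.05) and Usp18 (9.02) and low for Ugt2b35 (13.07). At 20 ppm, replicate 2 was high for Cyp17a1 (11.77) and low for C6 (7.96), and replicate 1 was low for Ugt2b36 (14.87).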

How the results depend on the processing

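All counts are of called genes, and the cause of each shift was not tested. In place of ACO5, ACO4 gave 81 for 30 ppm, 10 for 20 ppm and 21 for their mean, ACO3 gave 60, 5 and 19, and the pooled sets gave 49 for 30 ppm and 22 for the mean. With only the compared groups in the fit, the counts were 1 for 30 ppm, 0 for 20 ppm and 1 for the mean against ACO5, 0 for 30 against 20 ppm, 0 for ACO4 and 0 for ACO3 against ACO5, and 10 for the mean against the 3 air sets. Testing all probe sets gave 1 for 30 ppm, 103 for 20 ppm, 317 for 30 against 20 ppm, 1488 for high against low concentrations, 128 for ACO4 and 74 for ACO3. Array weights gave 5 for 30 ppm, 65 for 20 ppm, 13 for the mean, 195 for 30 against 20 ppm, 39 for ACO4, 31 for ACO3, 61 for the mean against the 3 air sets and 56 for the trend. Leaving out dim genes gave 87 for 30 against 20 ppm and 30 for the trend, a pseudocount 4 times higher gave 264 for high against low concentrations, and no minimum fold gave 2574 there and 56 against the 3 air sets. Values as deposited, chosen after seeing the data, gave 15 for 20 ppm, 26 for 30 against 20 ppm, 13 against the 3 air sets and 3 for the trend. Without single replicates the counts ranged from 0 to 1 for 30 ppm, 15 to 43 for 20 ppm, 0 to 6 for the mean, 23 to 73 for 30 against 20 ppm, 446 to 784 for high against low, 13 to 39 for ACO4, 9 to 24 for ACO3, 14 to 31 against the 3 air sets and 4 to 32 for the trend.

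Changes of named genes turned direction only with another control set. With ACO4 these were Ugdh (-0.0193) at 30 ppm, Baz1a (-0.31), Hnrnpab (-0.18), Ubn1 (-0.12) and Dhdh (-0.19) at 20 ppm, and Baz1a (-0.96), Sh3rf1 (-0.88), Cyp3a11 (-0.0530), Ugt2b36 (-0.0499) and Ugdh (-0.0262) for the mean. With ACO3 they were Baz1a (-0.12) and Dhdh (-0.26) at 20 ppm, and Baz1a (-0.76), Sh3rf1 (-0.78) and Ugdh (-0.00689) for the mean. With the pooled sets they were Baz1a (-0.18) and Sh3rf1 (-0.24) for the mean. No paired analysis was possible because the titles carry animal numbers and no replicate numbers shared between groups. The leaving out of replicate 4 of ACO4 and replicate 3 of ACO3 was chosen after seeing the data.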
